A study of Homo sapiens with 4 samples.

Results

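The comparison was between MKN28 cells carrying full-length KIAA1324 (WT) and the MKN28 library labelled ΔTM, in which the construct lacks the transmembrane domain. MKN28 is a human gastric adenocarcinoma cell line. Genes were taken where the FPKM, fragments per kilobase of transcript, scaled to the mapped fragments of a library, was at least 1 in either library, and 11592 of the 23362 genes in the table met this rule. Each was given a log2 ratio of WT over the library labelled ΔTM with 1 added to each FPKM, which understates the difference of low genes. The study holds 4 RNAseq libraries of poly(A) RNA, 1 for each of WT, ΔTM, 3NQ and Luc. In 3NQ, asparagines at N-glycosylation sites were exchanged for glutamine, and Luc cells carry luciferase in place of KIAA1324. All 4 are stable lines made by retroviral transfer of a tetracycline-inducible (tet-on) cassette, the KIAA1324 constructs carry an HA tag, and the study uses ΔTM as a form that has lost its function. Whether these cells received doxycycline before RNA was taken is not given in the sources used here. With 1 library a side there was no replicate check and no test across conditions, and a gene is called higher or lower where its ratio passed 1.5-fold. Such a call compares a pair of libraries, and fewer cells of a kind and less RNA per cell cannot be told apart in it.

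KIAA1324 encodes a membrane protein with a region of homology to the mannose-6-phosphate receptors, and it has been found in the Golgi, in endosomes and at the cell surface. Secreted and membrane proteins fold in the endoplasmic reticulum (ER), where chaperones such as HSPA5 (GRP78, also called BiP) hold them until folding is complete. When unfolded protein builds up, the sensors ATF6, IRE1 and PERK raise the transcription of chaperones and slow translation. Many genes switched on in this response carry an ER stress element in their promoters, a CCAAT box and a CCACG box spaced 9 bases apart, which ATF6 binds together with NF-Y.

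KIAA1324 (ENSG00000116299; GRCh37 chromosome 1, 109656301 to 109749401, plus strand) had an FPKM of 11185 in WT, 0 in the library labelled ΔTM, 2.86 in Luc and 8197 in 3NQ. Thus, KIAA1324 was listed in the library labelled ΔTM below its level in the luciferase control, against the label of that library, and it is called the library labelled ΔTM throughout. A listed 0 can be a failed estimate in this kind of table, so no fold is given. Of the neighbouring genes, C1orf194, which overlaps the 5′ end of KIAA1324, was listed at 0 in all 4 libraries, whereas TAF13, TMEM167B and SARS were not. SARS, the seryl-tRNA synthetase on the 3′ side, had an FPKM of 308.4 in WT, 267.74 in the library labelled ΔTM, 257.15 in Luc and 327.9 in 3NQ. The reading frame of the GENCODE transcript ENST00000369939 codes for 1013 residues, and the most hydrophobic stretch of 21 residues after the signal region, a description of where a membrane-spanning segment can lie, was residues 911 to 931. It is coded within exon 20 of 22, at chr1:109742783-109742845 on the plus strand of GRCh37. Its mean hydropathy, a score that is higher for residues that avoid water, was 1.6, and that of the next stretch outside it was 1.42. It is shown because a ΔTM construct may lack such a stretch, although the bounds of the deletion are not given in the sources used here.
KIAA1324 residues 911 to 931, coding strand: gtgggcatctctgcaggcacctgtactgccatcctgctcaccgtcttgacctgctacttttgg

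The promoters of 4 chaperone genes are shown. They were taken from the 7 of 20 chaperone promoters that held an ER stress element, and belong to the genes with the largest ratios among those 7. Each runs from 250 bases before to 50 bases after the transcription start in RefSeq (GRCh38.p14), 5′ to 3′ on the strand of the gene, and capitals mark the CCAAT and CCACG boxes of each match or their reverse complements ATTGG and CGTGG.
HSPA5, chr9:125241294-125241593, minus strand: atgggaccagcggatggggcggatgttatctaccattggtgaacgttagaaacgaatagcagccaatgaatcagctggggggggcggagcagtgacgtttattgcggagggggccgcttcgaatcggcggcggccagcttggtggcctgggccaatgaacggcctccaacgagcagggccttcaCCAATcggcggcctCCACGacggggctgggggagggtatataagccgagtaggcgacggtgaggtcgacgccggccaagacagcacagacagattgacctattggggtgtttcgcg
HSP90B1, chr12:103930160-103930459, plus strand: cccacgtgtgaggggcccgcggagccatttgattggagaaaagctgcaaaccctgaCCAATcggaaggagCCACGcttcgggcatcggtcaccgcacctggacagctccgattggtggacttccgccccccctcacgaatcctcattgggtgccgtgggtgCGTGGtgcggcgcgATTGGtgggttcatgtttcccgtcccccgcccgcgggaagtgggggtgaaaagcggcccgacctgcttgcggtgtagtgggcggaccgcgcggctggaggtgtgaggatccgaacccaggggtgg
CALR, chr19:12938359-12938658, plus strand: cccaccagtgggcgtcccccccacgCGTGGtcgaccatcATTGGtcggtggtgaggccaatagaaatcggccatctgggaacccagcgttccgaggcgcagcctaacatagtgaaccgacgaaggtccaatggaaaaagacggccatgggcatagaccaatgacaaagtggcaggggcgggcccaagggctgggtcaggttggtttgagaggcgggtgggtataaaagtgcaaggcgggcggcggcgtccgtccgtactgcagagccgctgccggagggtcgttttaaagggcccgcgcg
CRELD2, chr22:49918384-49918683, plus strand: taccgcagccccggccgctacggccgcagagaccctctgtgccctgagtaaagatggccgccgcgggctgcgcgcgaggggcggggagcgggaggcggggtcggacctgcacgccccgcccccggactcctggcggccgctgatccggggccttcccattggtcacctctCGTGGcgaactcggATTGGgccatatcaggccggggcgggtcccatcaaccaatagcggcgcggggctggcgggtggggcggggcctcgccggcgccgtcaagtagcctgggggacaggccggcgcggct

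In the whole comparison, 499 genes (4.3%) were higher in WT and 341 genes (2.94%) were lower. Past 2-fold, 87 genes were higher and 85 were lower. The median log2 ratio was 0.049, and ratios from the 5th to the 95th percentile ran from −0.46 to 0.55. Higher genes made up 59.4% of the calls, and 48.2% after a rescaling with the median ratio of the genes, which gave 397 higher and 427 lower genes. The balance of higher against lower calls therefore depended on the scaling. Genes nearest the threshold had log2 ratios of 0.5851 inside and 0.5845 outside on the higher side, and −0.5855 and −0.5846 on the lower side. The epithelial markers EPCAM, CDH1, KRT8, KRT18 and KRT19 were present in each library, for example EPCAM at an FPKM of 345 to 391, whereas the intestinal cadherin CDH17 was listed at 0 in all 4. Of the 14 leukocyte and endothelial markers, 1 passed the FPKM rule, and their summed FPKM was between 5.42 and 6.35. The ratio varied little with transcript length (median 0.036 among the shortest 20% of genes and 0.096 among the longest) or GC content (0.052 and 0.056).

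**Figure D1:**
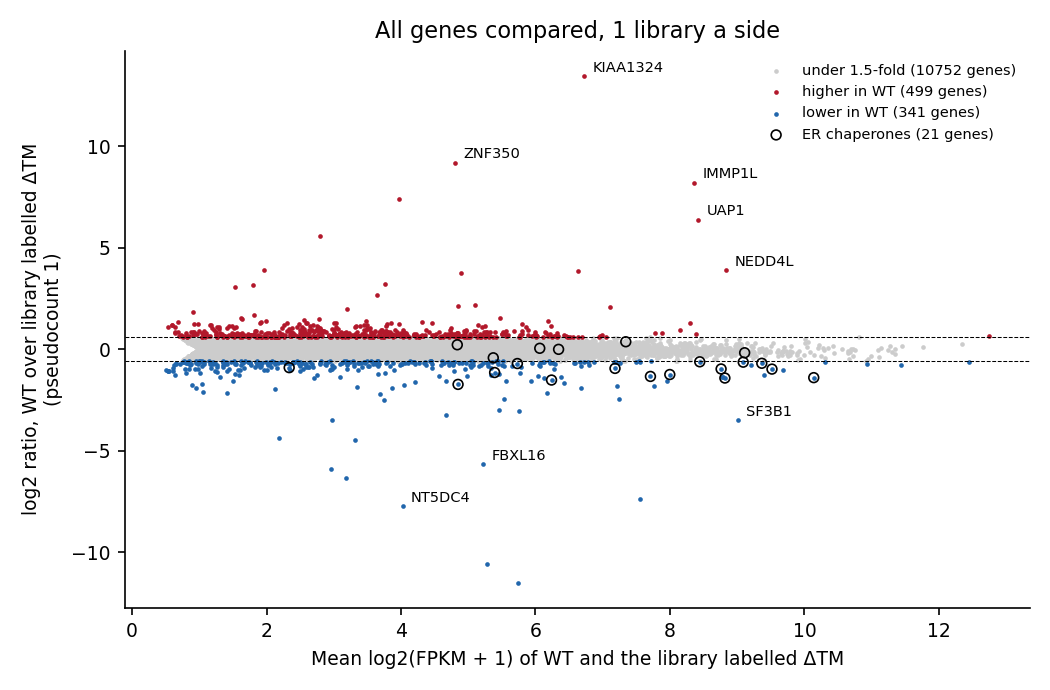
Log2 ratio of WT over the library labelled ΔTM (1 added to each FPKM) against the mean log2(FPKM + 1) of both libraries, 1 point a gene for 11592 genes, with dashed lines at 1.5-fold and circles round the 21 ER chaperone genes. Most circles lie below the lower line, and the points farthest from 0 include genes such as KIAA1324 that are listed at 0 in 1 library, whose height is set by the added 1.

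ER chaperones and folding enzymes had the median farthest from 0 among the 40 gene lists. Of the 21 genes of this list, 15 were lower in WT (71.4%, beside 2.94% of all genes), none was higher, and the median log2 ratio was −0.91. Their summed FPKM was 4470 in WT, 8330 in the library labelled ΔTM, 4120 in Luc and 7380 in 3NQ. In this sum, WT and Luc were thus alike and low, and the library labelled ΔTM and 3NQ were high.

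HSPA5, the main chaperone of the ER lumen, had an FPKM of 521 in WT, 1030 in the library labelled ΔTM, 318 in Luc and 1110 in 3NQ, and was 1.97-fold lower in WT than in the library labelled ΔTM. HSP90B1 (GRP94), its partner for late folding steps, was at 275, 737, 315 and 570 in the same order, and was 2.68-fold lower. CALR, the lectin chaperone calreticulin that binds newly glycosylated proteins, was at 693, 1830, 757 and 1110, and was 2.64-fold lower. For each of these, the lower pair was WT and Luc and the higher pair was the library labelled ΔTM and 3NQ. Within the lower pair, WT was above Luc for HSPA5 and below it for HSP90B1 and CALR. The largest ratio of the list belonged to CRELD2, a secreted ER stress protein with disulphide isomerase activity, with an FPKM of 14.8 in WT, 51.5 in the library labelled ΔTM, 14.8 in Luc and 35.4 in 3NQ (3.32-fold lower). SDF2L1, a component of the HSPA5 chaperone complex, was at 43.6, 127, 36.1 and 92.0 (2.87-fold lower). The disulphide isomerase PDIA4 was at 131, 332, 140 and 271, and was 2.53-fold lower. The co-chaperones and exchange factors were lower too, in that HYOU1 was 2.37-fold, MANF 2.22-fold, DNAJB11 1.93-fold and DNAJC3 1.63-fold lower. So were further folding enzymes, PDIA6 (1.96-fold), ERO1LB (1.88-fold), PPIB (1.62-fold), PDIA3 (1.56-fold) and the membrane lectin CANX (1.54-fold). With a pseudocount of 5, ERO1LB fell short and 14 genes stayed lower. The 6 remaining members did not pass the threshold. Among them, UGGT1, the glucosyltransferase that returns misfolded glycoproteins to the lectin cycle, had a log2 ratio of −0.42, the isomerase P4HB −0.17, and the calcium-binding CALU 0.37. DNAJB9 (ERdj4) had an FPKM of 29.8 in WT, 25.5 in the library labelled ΔTM, 13.0 in Luc and 39.2 in 3NQ, so that WT lay above the library labelled ΔTM here.

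**Figure D2:**
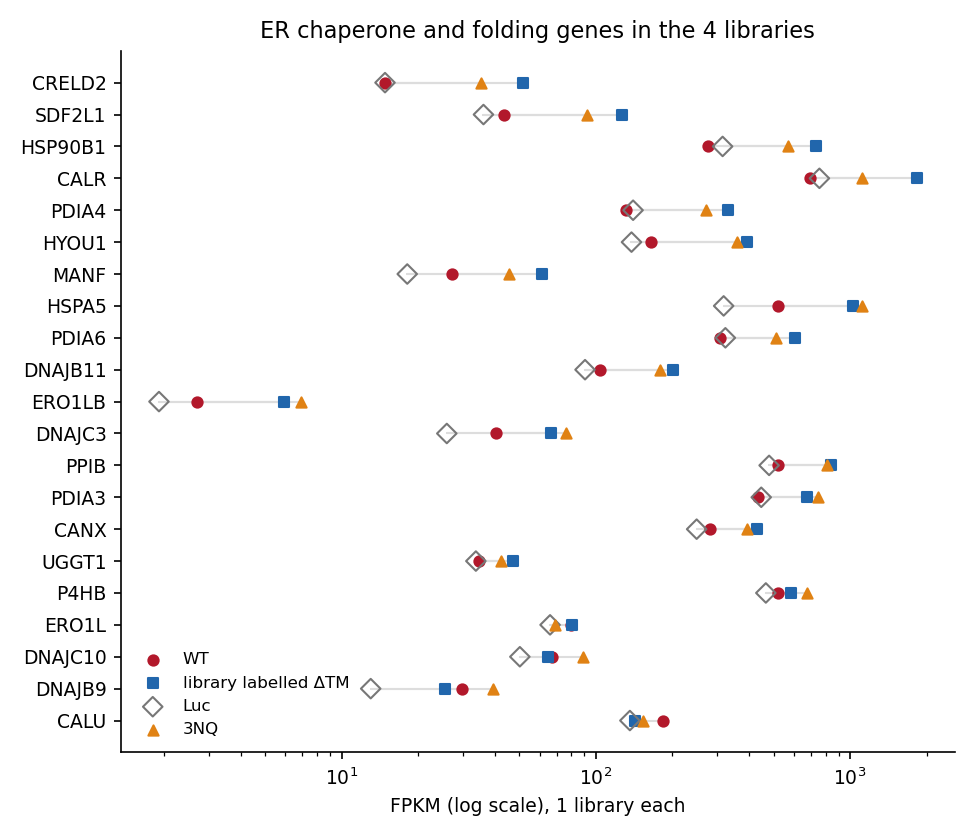
FPKM on a log axis of the 21 ER chaperone and folding genes in WT (circles), the library labelled ΔTM (squares), Luc (open diamonds) and 3NQ (triangles), 1 library each, ordered by the ratio of WT over the library labelled ΔTM. In the upper 18 rows WT lies left of the library labelled ΔTM, past 1.5-fold in the upper 15. All 21 genes have a higher FPKM in 3NQ than in Luc.

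The ratio of 3NQ over Luc uses neither library of the comparison, although the chaperone list was written with earlier results of all 4 libraries known and is thus not independent of them. All 21 chaperone genes were higher in 3NQ than in Luc, 16 of them past 1.5-fold, with a median log2 ratio of 0.85. Over all genes compared, 1.67% were past 1.5-fold higher in 3NQ and 2.34% lower. Against Luc, which the ratios then share, the median of the list was 0.19 in WT and 1.14 in the library labelled ΔTM, and 3 and 16 of the 21 genes, respectively, were past 1.5-fold higher. Hence, the level in the library labelled ΔTM was above the control, and not only above WT. Of the 15 lower chaperone genes, 14 had Luc nearer to WT and 3NQ nearer to the library labelled ΔTM, and CALR had both nearer to WT. Of the 341 genes lower in WT, 32 were also past 1.5-fold higher in 3NQ than in Luc, and 14 of these 32 were on the chaperone list. Among the other 18, chosen after their values were seen, ERP44, a thioredoxin-family protein of the early secretory pathway, had an FPKM of 23.9 in WT, 42.0 in the library labelled ΔTM, 22.1 in Luc and 37 in 3NQ. TUBA1A, an alpha-tubulin, was at 40.4, 103, 14.7 and 90.6 in the same order.

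The ER stress element shown above, CCAAT and CCACG spaced by 9 bases and searched on both strands, was present in the promoters of 15 of 9216 genes compared that had a RefSeq promoter (0.163%). It was found in 0 of 371 genes higher in WT and in 7 of 231 genes lower in WT (3.03%). All 7 belonged to the chaperone list, where it was present in 7 of 20 promoters (35.0%). These were CRELD2, HSP90B1, CALR, HSPA5, PDIA6, ERO1LB and CANX. The other 8 genes with the element did not pass the threshold, and their median log2 ratio was −0.11. They included XBP1, the transcription factor of the IRE1 arm, with an FPKM of 116 in WT, 114 in the library labelled ΔTM, 83.5 in Luc and 109 in 3NQ. Another was SERP1, a stabiliser of membrane proteins in the ER, at 209, 163, 134 and 207. A match is a description of the letters in this window and not of binding.

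Of 17 genes compared for the sensors and the degradation machinery of the ER, 2 were higher in WT (11.8%, beside 4.3% of all genes) and none was lower, with a median of 0.01. In 3NQ over Luc, 15 of the 17 were higher, 6 of them past 1.5-fold, with a median of 0.39. WT was above Luc too, with a median of 0.44 and 6 genes past 1.5-fold higher. For the library labelled ΔTM over Luc these were 0.2 and 5. SEL1L, of the complex that exports misfolded proteins, was at 37.4 in WT, 46.1 in the library labelled ΔTM, 27.4 in Luc and 51.7 in 3NQ (log2 ratio −0.29), with Luc nearer to WT and 3NQ nearer to the library labelled ΔTM as in most chaperones. EIF2AK3, the sensor kinase PERK, had an FPKM of 19.1 in WT, 11.5 in the library labelled ΔTM, 10.7 in Luc and 15.1 in 3NQ (1.61-fold higher in WT, and short of 1.5-fold with a pseudocount of 5). PPP1R15A (GADD34), the phosphatase subunit that reverses the block of translation by PERK, was at 52.8, 29.1, 25.1 and 39.5 (1.79-fold). In both, WT was the highest library and 3NQ the next. Genes downstream of ATF4, the transcription factor of the PERK arm, included 3 higher of 23 (13.0%, beside 4.3%) and none lower, with a median of 0.05. CHAC1, which degrades glutathione, was at 23.1 in WT, 9.26 in the library labelled ΔTM, 11.8 in Luc and 15.2 in 3NQ (2.35-fold). SESN2, an inhibitor of mTORC1 under stress, was at 16.6, 8.86, 8.57 and 12.7 (1.78-fold). DDIT4, another mTORC1 inhibitor, was at 19.8, 9.92, 17.6 and 10.8 (1.9-fold), with Luc near WT and 3NQ near the library labelled ΔTM. Thus, in the same pair of libraries the chaperones were lower in WT while EIF2AK3, PPP1R15A and CHAC1 were higher.

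Of 33 genes of vesicle transport between the ER and the Golgi, 9 were higher in WT (27.3%, beside 4.3% of all genes) and none was lower. A ratio above 0 was found for 28 of them (57.1% of all genes), with a median of 0.31. KDELR3, a receptor that returns escaped chaperones from the Golgi to the ER, had an FPKM of 33.6 in WT, 13.2 in the library labelled ΔTM, 11.4 in Luc and 14.2 in 3NQ (2.45-fold higher). ARF4, a small GTPase of the Golgi, was at 289, 165, 153 and 195 (1.74-fold). SEC23A, of the inner COPII coat that buds from the ER, was at 61.2, 34.2, 41.8 and 34.7 (1.77-fold). WT was the highest of the 4 libraries in each. SEC24A, its partner in the coat, was 1.75-fold, the Golgi tethers GOLGB1 and GOLGA2 1.65-fold and 1.55-fold, the COPI subunits COPG1 and COPA 1.54-fold and 1.52-fold, and CREB3, a transcription factor cut in the Golgi, 1.5-fold higher. COPA, COPG1, GOLGA2 and CREB3 fell short of 1.5-fold under both rescalings, which left 5 genes higher and 1 lower, and COPA, GOLGB1 and CREB3 did so with a pseudocount of 5.

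Of the 41 genes of N-glycan synthesis and fucosylation compared, none was higher and 1 was lower (2.44%, beside 2.94% of all genes), with a median of 0.05. This was MGAT3, which adds the bisecting N-acetylglucosamine, at 4.65 in WT, 8.56 in the library labelled ΔTM, 9.01 in Luc and 5.45 in 3NQ, and it fell short with a pseudocount of 5. FUT8, the core fucosyltransferase, was at 19.3, 21.5, 27.6 and 17.5 (log2 ratio −0.15). After the values were seen, the genes that make UDP-N-acetylglucosamine, the sugar donor of these glycans, were also read. PGM3 was at 52.6 in WT, 24.5 in the library labelled ΔTM, 25.1 in Luc and 42.6 in 3NQ (2.1-fold higher in WT), and UAP1L1 was at 16.8, 8.64, 8.94 and 9.49 (1.85-fold). GNPNAT1 (log2 ratio 0.38) and GFPT1 (0.28), the entry enzyme of the pathway, did not pass the threshold. UAP1, the last enzyme, stood apart at 3130 in WT against 36.4, 30.0 and 51.0.

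Of 29 autophagy genes, 8 were higher in WT (27.6%, beside 4.3% of all genes), none was lower, and 27 had a ratio above 0, with a median of 0.27. SQSTM1 (p62), the receptor that carries ubiquitylated cargo, had an FPKM of 495 in WT, 200 in the library labelled ΔTM, 175 in Luc and 257 in 3NQ (2.47-fold higher). OPTN, another cargo receptor, was at 46.3, 24.4, 25.5 and 30.6 (1.86-fold). PIK3C3, the lipid kinase VPS34, was at 14.6, 7.76, 12.3 and 9.92 (1.79-fold). For SQSTM1 and OPTN, WT stood above the other 3 libraries, whereas PIK3C3 in Luc was nearer to WT. ULK1 and ATG13, of the kinase complex that starts autophagy, were 1.70-fold and 1.58-fold higher, MAP1LC3A 1.72-fold, WIPI1 1.69-fold and ATG10 1.53-fold. ATG10 fell short of 1.5-fold when rescaled, and a pseudocount of 5 left 5 genes higher, without ATG10, WIPI1 and MAP1LC3A. The median of the list in 3NQ over Luc was −0.02. Of 41 lysosomal genes compared, 3 were higher (7.32%, near the 4.3% of all genes) and none was lower, with a median of 0.16, namely ATP6V1D (1.58-fold) and ATP6V1C1 (1.51-fold), subunits of the proton pump, and the sialidase NEU1 (1.53-fold). ATP6V1C1 and NEU1 fell short of 1.5-fold when rescaled, which left 1 lysosomal gene higher. IGF2R, the cation-independent mannose-6-phosphate receptor and thus related in part to KIAA1324, had an FPKM of 60.6 in WT, 36.7 in the library labelled ΔTM, 53.1 in Luc and 50.3 in 3NQ. Here it was the library labelled ΔTM that lay apart.

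**Figure D3:**
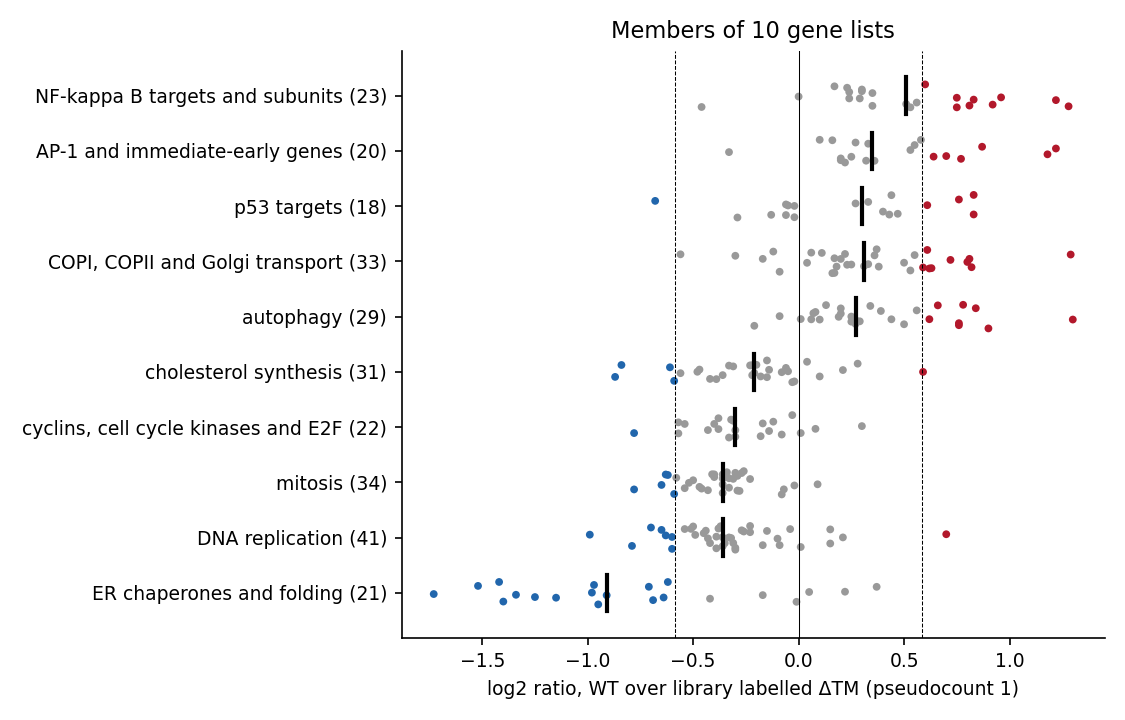
Log2 ratio of WT over the library labelled ΔTM for each member of 10 gene lists, with the number of genes compared in brackets, the list median as a black bar, dashed lines at 1.5-fold, and colour for genes higher (red) or lower (blue) in WT. The chaperone median lies at −0.91 and that of the NF-kappa B list at 0.51, whereas DNA replication and mitosis centre on −0.36.

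The study asks whether KIAA1324 WT holds back the cell cycle. DNA replication genes were lower in WT in 7 of 41 cases (17.1%, beside 2.94% of all genes), 1 was higher, and 36 had a ratio below 0, with a median of −0.36. GINS4, of the replicative helicase, had an FPKM of 20.9 in WT, 42.6 in the library labelled ΔTM, 30.6 in Luc and 22.5 in 3NQ (1.99-fold lower). CDC45, its helicase partner, was at 33.6, 58.7, 52.8 and 41.3 (1.73-fold). PRIM1, the primase subunit that starts each strand, was at 23.7, 39.0, 36.8 and 31.6 (1.62-fold). WT was the lowest library in each of these, and 3NQ the next. RFC4 of the clamp loader, the polymerase subunits POLE2 and POLD1 and the primase subunit PRIM2 were 1.51-fold to 1.57-fold lower, and a pseudocount of 5 left 4 genes lower, without POLE2, POLD1 and PRIM2. POLD4, the small subunit of polymerase delta, went the other way at 32.6 in WT and 19.7 in the library labelled ΔTM.

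Mitotic genes had 5 of 34 lower (14.7%, beside 2.94% of all genes), none higher and 33 below 0, with a median of −0.36. BIRC5 (survivin), of the chromosomal passenger complex, had an FPKM of 49.6 in WT, 86.0 in the library labelled ΔTM, 84.3 in Luc and 64.7 in 3NQ (1.72-fold lower). TOP2A, the topoisomerase that untangles sister chromatids, was at 80.0, 126, 141 and 105 (1.57-fold). ANLN, TTK and NUF2 were 1.55-fold, 1.54-fold and 1.51-fold lower, of which TTK and NUF2 fell short with a pseudocount of 5. Of 22 cyclins, cell cycle kinases and E2F genes, 1 was lower (4.55%, near the 2.94% of all genes). A ratio below 0 was found for 19 of them, and the median was −0.30. That gene was E2F1, the transcription factor that opens S phase, at 19.1 in WT, 33.4 in the library labelled ΔTM, 34.7 in Luc and 25.5 in 3NQ (1.71-fold). Most of these shifts were small and of 1 direction rather than large in single genes. In 3NQ over Luc, the medians were −0.21 for replication, −0.30 for mitosis and −0.29 for the cyclin list, beside −0.037 for all genes. An E2F motif, TTTCCCGC, TTTCGCGC, TTTGCCGC or TTTGGCGC on either strand, was present in 17 of 34 replication promoters and in 633 of 9216 promoters overall (6.87%). It was in 1 of the 6 lower replication genes with a promoter, and in 6.90% of mitotic promoters.

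Of 12 cell cycle arrest genes compared, 2 were higher (16.7%, beside 4.3% of all genes) and 1 was lower (8.33%, beside 2.94%). The median was −0.02. CDKN1A (p21), the inhibitor of cyclin-dependent kinases induced by p53, had an FPKM of 83.6 in WT, 46.6 in the library labelled ΔTM, 48.8 in Luc and 56.4 in 3NQ (1.78-fold higher). GADD45B, a stress sensor related to GADD45A, was at 12.8, 7.78, 9.85 and 10.7 (1.57-fold). CDKN2C (p18), an inhibitor of CDK4 and CDK6, was lower, at 5.06, 8.32, 10.5 and 6.82 (1.54-fold). GADD45A itself was at 36.8, 29.1, 23.4 and 28.1 (log2 ratio 0.33), and CDKN1C (p57) was near the FPKM minimum at 1.22, 0.826, 0.768 and 0.726 (0.28). Neither passed the threshold, and with a pseudocount of 5 CDKN1A was the only arrest gene past it. Of 18 p53 targets, 4 were higher (22.2%, beside 4.3% of all genes) and 1 lower (5.56%, beside 2.94%), with a median of 0.30. Beside CDKN1A and SESN2, these were BBC3 (PUMA), a killer protein of the BCL2 family, at 10.02, 5.50, 6.47 and 6.60 (1.70-fold), and MDM2, the ubiquitin ligase of p53, at 84.6, 55.3, 65.5 and 51.8 (1.52-fold, and short of 1.5-fold when rescaled). DDB2, of DNA damage recognition, was lower at 6.31, 10.7, 9.83 and 9.61. BBC3, MDM2 and DDB2 fell short with a pseudocount of 5. WT was the library apart in CDKN1A, BBC3, MDM2 and DDB2. Of 27 pro-apoptotic genes compared, BBC3 was the only higher and TNFSF10 the only lower gene, with a median of 0.09. These shares of 3.7% each were near those of all genes (4.3% and 2.94%). TNFSF10 had a log2 ratio of −0.87 and fell short with a pseudocount of 5.

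Immediate-early and AP-1 genes had 6 of 20 higher (30.0%, beside 4.3%), none lower and 19 above 0, with a median of 0.35. KLF6, a zinc finger factor of early responses, had an FPKM of 83.9 in WT, 35.5 in the library labelled ΔTM, 33.3 in Luc and 44.2 in 3NQ (2.33-fold higher). ATF3, a stress-induced partner of JUN, was at 21.4, 11.3, 12.8 and 16.3 (1.82-fold). JUN, the AP-1 subunit that JNK phosphorylates, was at 31.8, 18.3, 15.0 and 24.6 (1.70-fold). WT was the highest and 3NQ the next in all of them. NR4A1, NR4A2 and KLF2 were also higher, but not with a pseudocount of 5. The genes of the JNK and p38 pathway itself did not move together, with 1 of 17 higher and 1 lower. These shares of 5.88% each were near those of all genes (4.3% and 2.94%). The median was −0.07, which became 0.10 without the FPKM minimum. The higher gene was MAPK8IP2, a JNK scaffold, at 6.82 in WT, 3.12 in the library labelled ΔTM, 3.01 in Luc and 3.75 in 3NQ. The lower gene was MAP2K6, with a log2 ratio of −1.05 and an FPKM below 5 in both libraries. Neither stayed past the threshold with a pseudocount of 5.

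NF-kappa B targets and subunits held the largest share of higher genes among the lists with at least 20 genes compared, with 9 of 23 (39.1%, beside 4.3% of all genes), none lower and 21 above 0, and a median of 0.51. That median was 0.30 without the FPKM minimum and 0.34 with a pseudocount of 5, which left 4 genes higher. IL8 (CXCL8), a chemokine for neutrophils, had an FPKM of 21.4 in WT, 8.25 in the library labelled ΔTM, 5.88 in Luc and 17.8 in 3NQ (2.42-fold higher). RELB, an NF-kappa B subunit, was at 14.6, 6.98, 6.67 and 9.37 (1.95-fold). SOD2, the mitochondrial superoxide dismutase, was at 59.7, 33.2, 31.4 and 41.2 (1.77-fold). TNFAIP3 (A20), a feedback inhibitor of the pathway, was at 57.8, 34.0, 33.4 and 38.3 (1.68-fold). In these 4 genes WT was highest, 3NQ next, and Luc close to the library labelled ΔTM. IL1A, NFKBIE and IL32 were 1.75-fold, 1.68-fold and 1.52-fold higher (IL32 not when rescaled), and CCL20 and TRAF1 were higher at an FPKM below 3. In 3NQ over Luc the median was 0.30, and 4 of the genes higher in WT were past 1.5-fold higher there too. IFNB1, the interferon beta gene, was read after its values were seen and was at 11.01, 4.59, 3.70 and 6.48.

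**Figure D4:**
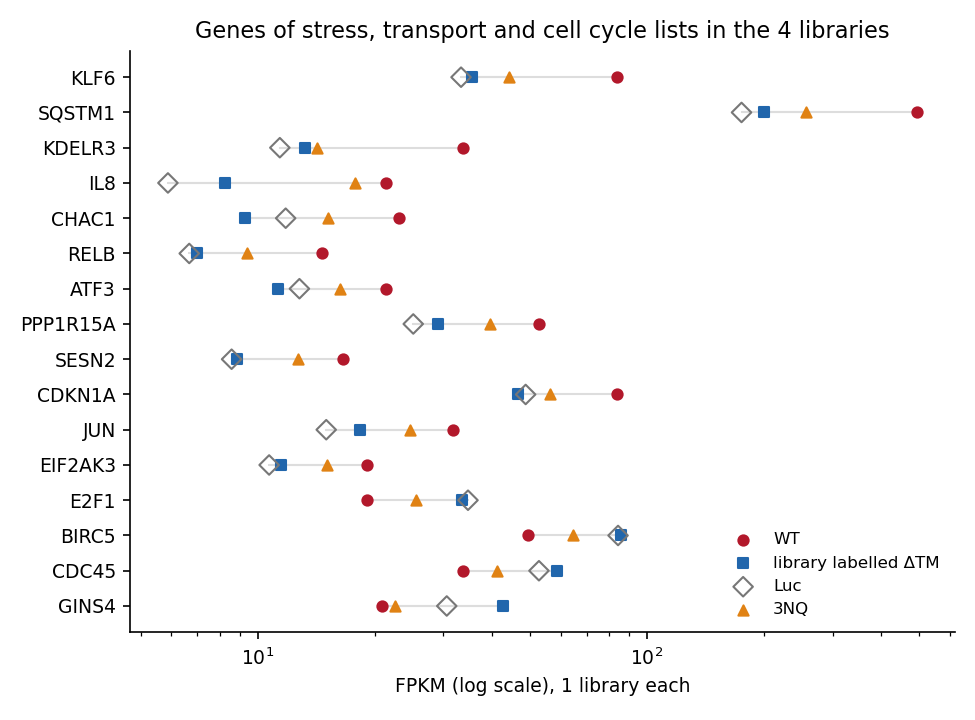
FPKM on a log axis of 16 genes from the stress, transport and cell cycle lists in WT (circles), the library labelled ΔTM (squares), Luc (open diamonds) and 3NQ (triangles), 1 library each. WT is rightmost in the upper 12 genes and leftmost in E2F1, BIRC5, CDC45 and GINS4, and 3NQ lies between WT and the library labelled ΔTM in all 16. The 16 genes were picked with their values known, so this order is an outcome of the choice. Other called genes do not follow it, such as MDM2, which was lowest in 3NQ.

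Interferon response genes split, with 4 of 32 higher (12.5%, beside 4.3% of all genes) and 6 lower (18.8%, beside 2.94%). The median was 0.02, and a pseudocount of 5 left 2 higher and 2 lower. IRF9, of the factor that binds interferon-stimulated promoters, was higher, at 19.5 in WT, 10.4 in the library labelled ΔTM, 14.2 in Luc and 15.4 in 3NQ. ISG20 and OAS1 were 1.63-fold and 1.57-fold higher. IFITM3, a membrane protein that blocks viral entry, was lower, at 83.8, 143, 110 and 113 (1.70-fold), and IFI27 was at 3.29, 9.51, 3.63 and 7.21. IFITM1, IFITM2 and IFITM3 are near copies of one another, so that reads shared between them make their split uncertain. Cholesterol and fatty acid synthesis had 4 of 31 genes lower (12.9%, beside 2.94% of all genes), 1 higher and 26 below 0 (median −0.21). A pseudocount of 5 left 1 lower. The desaturase FADS1 was at 9.71, 18.1, 17.1 and 13.5, and INSIG1, which holds back the sterol sensor, was at 26.2, 40.5, 54.2 and 22.9. Of 17 cluster histones compared, 6 were higher (35.3%, beside 4.3% of all genes), 1 was lower and 10 did not pass the threshold. HIST1H2BD was at 15.3, 6.84, 6.28 and 8.73, and HIST1H2BK at 45.4, 26.9, 30.2 and 38.3. Histone genes share sequence and many lack a poly(A) tail, and the median of 0.36 ranged from 0.13 to 0.73 over the settings tried.

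Epithelial genes were nearly level. Of 23 junction and keratin genes compared, none was higher and 2 were lower (8.7%, beside 2.94% of all genes). These were KRT18, at 2110 in WT, 3610 in the library labelled ΔTM, 3680 in Luc and 2670 in 3NQ, and its filament partner KRT8, at 4510, 6910, 8500 and 6360. Integrins and laminins had 3 of 19 higher (15.8%, beside 4.3% of all genes), among them ITGA2 at 79.4, 48.3, 50.8 and 53.1 and ITGA5 at 43.2, 27.2, 34.1 and 29.9. Of the insulin and IGF axis, IGF2R was the only gene of 13 past the threshold (7.69% higher, beside 4.3% of all genes). INSR was at 2.45, 1.36, 1.87 and 1.33 (log2 ratio 0.55) and IGF1R at 39.1, 33.5, 34.1 and 33.3 (0.22). The NRF2 list had 2 of 26 higher (7.69%, beside 4.3% of all genes), GCLC, which limits glutathione synthesis, at 41.5, 22, 22.7 and 28, and OSGIN1. TGF-beta and SMAD genes had 3 of 20 higher (15.0%, beside 4.3% of all genes), SKIL (1.95-fold), SMURF1 (1.64-fold) and ID2 (1.55-fold, and short of 1.5-fold when rescaled). These counts are of 2 or 3 genes and say little about the lists. Of 6 metallothioneins and zinc exporters compared, 2 were lower (33.3%, beside 2.94% of all genes), MT1X and MT2A by 1.59-fold and 1.52-fold. MT1X fell short with a pseudocount of 5. No gene of the proteasome, antigen presentation, tRNA synthetase, glycolysis or heat shock protein lists passed the threshold. Of 78 cytosolic ribosomal protein genes, 2 were higher (2.56%, beside 4.3% of all genes) and 4 lower (5.13%, beside 2.94%). A ratio below 0 was found for 55 of them, with a median of −0.12. Respiratory complex I had 1 of 38 higher (2.63%) and none lower. All 6 ribosomal protein calls had the library labelled ΔTM apart, for example RPS19 at 430, 1060, 464 and 385. Ribosomal protein genes have many processed copies in the genome.

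Of 14 genes taken from those that the study's text names beside KIAA1324, 13 could be compared. CDKN1A and JUN were higher, E2F1 and HSPA5 were lower, and the other 9 had log2 ratios from −0.15 to 0.55.

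The largest ratios of single genes were mostly those of 1 library that stood apart. Of the 10 highest ratios, 7 belonged to genes for which WT was at least 2-fold from each of the others while those lay within 2-fold of one another. Of the 10 lowest, 6 had the library labelled ΔTM apart in this way. ZNF350, a zinc finger repressor, was at 674 in WT, 0.153 in the library labelled ΔTM, 0 in Luc and 0.143 in 3NQ. NEDD4L, a ubiquitin ligase of ion channels, was at 1750, 118, 199 and 108. KDM6B, a histone H3K27 demethylase, was at 40.0, 3.50, 4.12 and 4. On the other side, NT5DC4 was at 0.118 in WT, 236 in the library labelled ΔTM, 0.211 in Luc and 0.219 in 3NQ. FBXL16, an F-box protein, was at 4.24, 264, 3.49 and 3.08. Others were high or low in more than 1 library. IMMP1L, a mitochondrial peptidase subunit, was at 5660, 18.2, 9820 and 22500, with the library labelled ΔTM lowest. SF3B1, the splicing factor, was at 153, 1710, 157 and 1720, high in the library labelled ΔTM and 3NQ. TPTE2P5, a pseudogene, was at 202, 0.213, 181 and 0, and shares sequence with its parent genes. Of the 27 genes past 8-fold, 16 had 1 library apart by this measure, 6 hold an annotated small RNA (20% of all genes do) and 12 overlap another gene (41.4% of all). Whether these values are estimates that failed in 1 library was not tested.

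Among genes listed at 0 in the library labelled ΔTM, the highest in WT after KIAA1324 was PIGY, of glycolipid anchor synthesis, at 47.1 in WT, 4.33 in Luc and 0 in 3NQ. It overlaps 2 other annotated genes, and reads of overlapping genes cannot be told apart here because the use of strand is not given in the sources used here. Among those listed at 0 in WT, AC025262.1 was at 2870 in the library labelled ΔTM, 3270 in Luc and 4270 in 3NQ, and SNORA71A was at 1520 in the library labelled ΔTM and 0 in the others. Both are short gene models, and no fold is given. In all, 9 of the genes compared were listed at 0 in WT and 6 in the library labelled ΔTM.

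The pair of 3NQ and Luc, which shares no library with the pair compared, placed the called genes as follows. Of the 498 higher genes other than KIAA1324, 57.8% were higher in 3NQ than in Luc (43.1% of all genes), with a median log2 ratio of 0.075, and 39 were past 1.5-fold higher and 26 past 1.5-fold lower. Of the 341 lower genes, 66.0% were lower in 3NQ than in Luc (56.9% of all genes), with a median of −0.143, and 44 were past 1.5-fold lower and 32 higher. The 32 include the 14 chaperones described above. Over all genes, 1.67% were past 1.5-fold higher in 3NQ than in Luc and 2.34% lower, so that both directions were more frequent among the called genes. For 274 of the 498 higher genes, Luc and 3NQ both lay nearer to the library labelled ΔTM, so that WT was apart, and for 53 both lay nearer to WT. Of the lower genes, 108 had WT apart and 94 had the library labelled ΔTM apart. These sides were not counted over all genes compared, and the genes were called on WT and the library labelled ΔTM. The counts thus have no background and do not tell which library changed. The correlation of the 2 ratios across 11592 genes was 0.129 (Pearson's r), 0.053 without KIAA1324, and 0.216 by ranks, as a description across genes that are not replicates. Chaperones and the cell cycle lists thus showed opposite relations between the pairs, in that the medians of the former differed in sign (−0.91 and 0.85) and those of the latter did not.

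**Figure D5:**
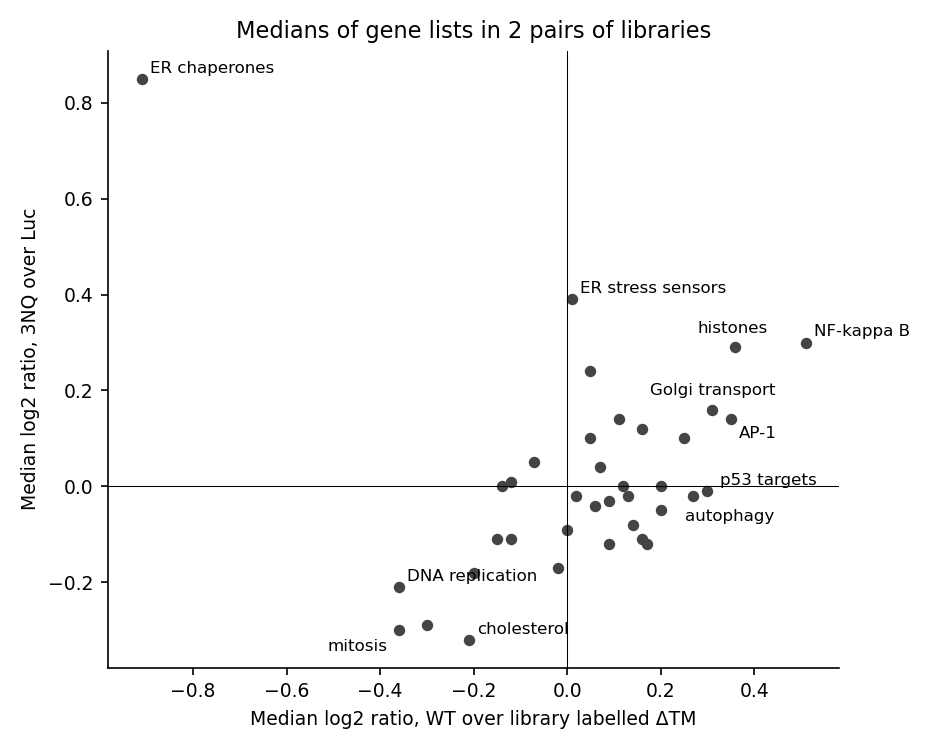
Median log2 ratio of 3NQ over Luc against that of WT over the library labelled ΔTM, 1 point for each gene list with at least 6 genes compared, 11 of them named. The ER chaperones lie alone at the upper left (−0.91 and 0.85), NF-kappa B lies at 0.51 and 0.30, and mitosis at −0.36 and −0.30.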

How the data were processed

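Poly(A) RNA of 4 MKN28 lines was sequenced, 1 library each, on a HiSeq2500 after TruSeq preparation. The authors removed poor reads and aligned the others to GRCh37 (Ensembl release 72) by Tophat. They ran Cufflinks (version 2.1.1) for gene FPKM, with non-coding regions masked and with its options for reads of several positions and for biased fragments. The deposited FPKM values are thus scaled by the authors for library size and gene length. They hold no counts or intervals, so that depth is unknown and a listed 0 can be a failed estimate. Summed FPKM was 564545 in WT, 560540 in the library labelled ΔTM, 575125 in Luc and 585104 in 3NQ.

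Log2 ratios used a pseudocount of 1, an FPKM minimum of 1 in either library and a 1.5-fold threshold, computed in pandas 2.3.3 and numpy 2.4.6 under Python 3.11.15. The steps were tested on simulated data. Of 166 entries that repeat a symbol, lists used the one with the higher mean FPKM. The comparison, its members and the 40 lists, written from general knowledge, were chosen with earlier results of these data known. Genes were named from KIAA1324, genes taken from the study's text, and the 10 highest and 10 lowest ratios at an FPKM of at least 5. Further sources were up to 5 genes listed at 0 on each side, and up to 6 members of a list by size of ratio. Some other list members past the threshold are added, but not all are named, and some lists are not described. Further genes were picked once their values were known. Single values of some genes that the study names are not reported here. Transcript length, GC content and the KIAA1324 reading frame came from GENCODE on GRCh37 with Biopython 1.88, and promoters from RefSeq, matched by symbol. Figures were drawn with matplotlib 3.10.9. Also tried were pseudocounts of 0.1 and 5, a threshold of 2-fold, no FPKM minimum or one of 5, genes at 0 left out, and libraries scaled to an equal upper quartile or an equal median ratio. Removal of the trend with length and GC content, and Luc in place of the library labelled ΔTM, were added after seeing the data.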

Additional observations from a re-analysis of the deposited data

How the results depend on the processing

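Each library is 1 culture, so that no value has a replicate error, and depth is unknown. No paired analysis was possible because each group has 1 library and no test was made. The counts of higher and lower genes (499 and 341) were 87 and 85 with a 2-fold threshold, 753 and 535 with a pseudocount of 0.1, and 178 and 140 with a pseudocount of 5. Rescaling by the upper quartile gave 410 and 411, and rescaling by the median of ratios 397 and 427. With Luc in place of the library labelled ΔTM, 394 genes were higher and 388 lower. Without the FPKM minimum the median of the JNK and p38 list changed sign, from −0.07 to 0.10, and with an FPKM of at least 5 that of mucins changed from 0.17 to −0.63, over few genes. A pseudocount of 5 moved the medians of ER chaperones to −0.69, NF-kappa B to 0.34, histones to 0.13, integrins to 0.07 and mucins to 0.06, and one of 0.1 moved histones to 0.61 and mucins to 0.31. No minimum gave 0.30 for NF-kappa B, 0.09 for TGF-beta, 0.14 for histones, 0.04 for mesenchymal genes, 0.05 for integrins and 0.0 for mucins. An FPKM of at least 5 gave −0.15 for arrest genes, 0.01 for ERK feedback genes, 0.73 for histones and 0.07 for integrins. Removing the trend with length and GC content gave 0.54 for histones. Of 157 named genes and list members past 1.5-fold, 96 stayed past it at every setting in which they were compared, other than the 2-fold threshold, and none changed sign. A pseudocount of 5 took 58 of them under the threshold, rescaling by the median of ratios 13 and by the upper quartile 12. The 2-fold threshold took 109 of them out. At 2-fold, 7 chaperone genes, 0 DNA replication genes and 0 mitotic genes were lower in WT, and 2 NF-kappa B genes were higher.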

Other observations

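Some genes outside the lists stood high in WT and next in 3NQ, and were chosen after their values were seen. RHOB, a small GTPase of endosomes and stress responses, had an FPKM of 118 in WT, 43.7 in the library labelled ΔTM, 37.5 in Luc and 60.0 in 3NQ, and RREB1, a zinc finger factor downstream of RAS, was at 58.9, 12.8, 14.8 and 29.6. Others were low in WT. DYRK1A, a kinase that promotes exit from the cell cycle, was at 63.8, 353, 271 and 149, and FBRSL1 was at 145, 424, 415 and 236 in the same order.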
